A study of Daphnia magna with 40 samples.

Results

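Juvenile Daphnia magna exposed to fluvoxamine were compared with juveniles kept in the acetone carrier alone, on 8 of the 40 one-colour Agilent arrays of the series. The 8 arrays were taken by the stage and treatment in their labels, 4 for fluvoxamine at 10 µg/L (FV10, spelled fluovoxamine in the labels) and 4 for acetone. Daphnia magna is a small freshwater crustacean that reproduces clonally, and all animals came from a single laboratory clone, Clone F. Each sample was RNA of whole animals, pooled from 20 juveniles that were less than 24 h old when exposure began and were kept for 3 days in 0.5 L of water with algal food. Each treatment had 4 such pools. Acetone, at 0.1 ml/L, carried the compounds, so the solvent was shared by all groups. The series text gives 30 ppb for fluvoxamine where the sample labels give 10 µg/L, and which dose the arrays received remains unsettled here. For fluoxetine, given to other juveniles, the series text gives 80 ppb where the labels give 40 µg/L, which is also unsettled. The other juveniles of the series, 12 arrays in all, had by their labels fluoxetine at 40 µg/L (FX40) or nonylphenol at 20 µg/L (NP20) or 60 µg/L (NP60). Adult arrays with the same labelled treatments are set beside the juveniles at the end. The adults were 8 to 9 days old when exposure began and were exposed for 10 to 14 days, with 3 broods given.

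Fluvoxamine is an antidepressant of the selective serotonin reuptake inhibitor class. It blocks the serotonin transporter, the membrane protein that takes released serotonin back into nerve cells, so the signal at serotonin receptors lasts longer. In crustaceans serotonin acts both as a transmitter in the nervous system and as a circulating modulator. The series asked whether such inhibitors disturb energy metabolism, development and offspring production in this species.

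The array held 14338 different Daphnia probes, each with an ID of its own and a separate ID stem, and the files do not pair these IDs with genes. Of the 14338 probes, 0 matched the RefSeq gene table given for assembly ASM2063170v1.1. Serotonin signalling, glycolysis, oxidative phosphorylation, moulting and the other gene lists drawn up for the comparison therefore had no measurable members. For the same reason the whole-animal label could not be checked against tissue markers. Probes are described below by their signal, their direction and their ID. Probe sequences were not used here.

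The FV10 group was not uniform: arrays A and B differed from C and D before any probe was tested. Brightness was taken as the 75th percentile of the processed signal, in intensity units. It was 205, 205, 400 and 308 on FV10 arrays A, B, C and D, against 774, 455, 387 and 357 on acetone arrays A, B, C and D. FV10 A and B were the dimmest of all 20 juvenile arrays, and FV10 C lay within the acetone range. On the log2 scale brightness was 8.07 ± 0.473 in FV10 and 8.88 ± 0.501 in acetone (SD, n = 4 each; two-sided exact permutation p = 0.0857, adjusted over 4 array measures 0.342). The difference was -0.809. Without FV10 C, the FV10 array nearest to the acetone mean, it was -1 with an exact permutation p of 0.0286, and with any other single array left out the exact permutation p was 0.0857 to 0.143.

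Each array also carried 10 E1A control probes, which read RNAs of known sequence that the Agilent one-colour workflow adds to every sample. Of these, 3 were well above background and unsaturated on all 20 juvenile arrays, and their mean log2 signal served as the spike-in level. The spike-in level was 11.8, 11.94, 11.27 and 11.3 on FV10 arrays A to D, against 12.27, 11.49, 11.05 and 11.48 on acetone arrays A to D. The spike-in levels of both groups overlapped, so the dimness of FV10 A and B was not shared by the added RNAs. The 75th percentile of the Daphnia probes lay below the spike-in level by a log2 difference of -4.12, -4.26, -2.63 and -3.03 on FV10 arrays A to D. On acetone arrays A to D this difference was -2.67, -2.66, -2.46 and -3. FV10 A and B lay below all other juvenile arrays, the next lowest being FX40 A at -3.11, while FV10 C and D lay at or near the acetone values. The same held within slides. On slide 2, FV10 A had -4.12 where NP20 A and NP60 C had -2.24 and -2.78, and on slide 7, FV10 B had -4.26 where NP60 B and acetone A had -2.94 and -2.67. Over all 4 arrays the difference averaged -3.51 ± 0.806 in FV10 and -2.7 ± 0.227 in acetone (SD, n = 4 each; two-sided exact permutation p = 0.171, adjusted 0.342).

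**Figure D1:**
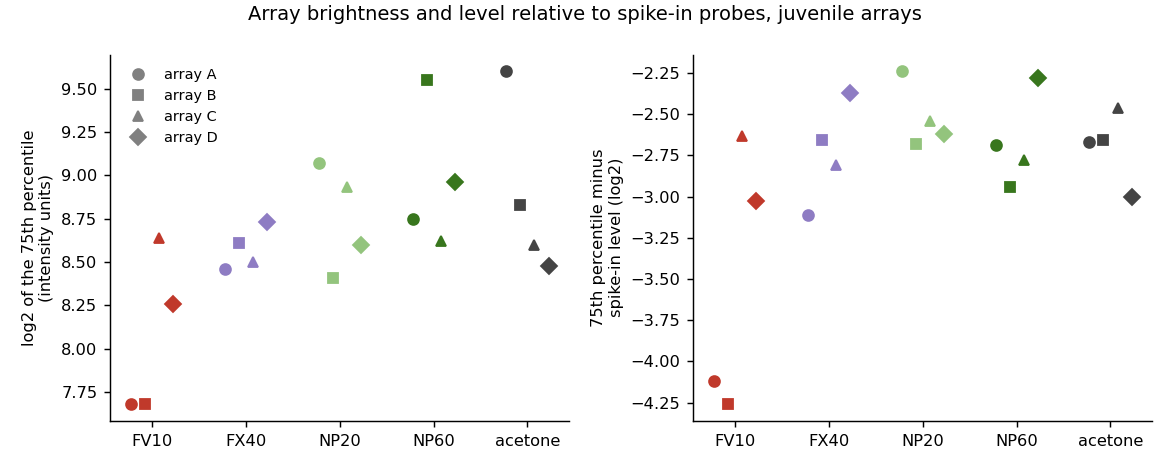
Left, log2 of the 75th percentile of processed signal in intensity units, and right, that value minus the spike-in level on the log2 scale, for each juvenile array by group, with replicate letters as symbols. FV10 A and B sit at 7.68 on the left and at -4.12 and -4.26 on the right, below every other array in both panels.

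Detection differed little between the FV10 arrays. The share of probes well above background, a call of the scanner software, was 75%, 78%, 80% and 78.6% on FV10 arrays A to D, against 78.5%, 79.5%, 57.9% and 79% on acetone arrays A to D. Acetone C was low, and of the other 7 arrays FV10 A and B had the lowest shares by a small amount. The mean was 77.9 ± 2.11% in FV10 and 73.7 ± 10.6% in acetone (SD, n = 4 each; two-sided exact permutation p = 0.743). The difference was 4.18 percentage points, and -1.1 without acetone C.

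FV10 arrays also differed more among themselves. Over the 6981 probes well above background on all 20 juvenile arrays, correlations between FV10 arrays ran from 0.871 to 0.964, against 0.938 to 0.978 between acetone arrays. These are descriptions over probes of the same arrays. FV10 A correlated at 0.964 with FV10 B, and C at 0.934 with D, while A or B correlated with C or D at 0.871 to 0.942. FV10 C or D correlated with acetone arrays at 0.923 to 0.958, and FV10 A or B with acetone arrays at 0.857 to 0.927. The median SD of a tested probe within the group was 0.672 on the log2 scale in FV10, compared with 0.424 in FX40, 0.456 in NP20, 0.511 in NP60 and 0.494 in acetone. On the first principal component of the juvenile arrays, with 21% of the variance, FV10 A, B, C and D lay at 126, 90.9, -6.16 and 21.7, and the acetone arrays between -35.1 and 11.1. On the second, with 15.8% of the variance, FV10 C and D lay apart, at -63.1 and 28.9.

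More probes were called higher than lower in FV10 against acetone, and most of the higher ones were dim. A level below is a log2 processed signal from which the log2 75th percentile of its array was subtracted, and a change is FV10 minus acetone on that scale. The limma fit of all 20 juvenile arrays called 1020 of 12880 tested probes (percent called 7.92) at an adjusted p under 0.05. Of these, 676 were higher in FV10 (5.25%) and 344 were lower (2.67%). The median change was 1.68 for the higher probes and -1.2 for the lower ones, against a median of 0.195 over all tested probes. A 4-fold change was reached by 152 higher and 17 lower probes, and an 8-fold change by 5 higher and 4 lower ones. The smallest changes called were 0.698 and -0.642. In RNA of whole animals, fewer cells of a type and less RNA per cell cannot be told apart.

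The direction split depended on the scaling. With the spike-in level in place of the 75th percentile, the median of all tested probes moved to -0.618, and 146 probes were called higher and 1800 lower. Quantile normalization gave 510 higher and 539 lower, and 499 were higher and 534 lower when the authors' log2 values were tested. Scaling to the 75th percentile of probes detected on all juvenile arrays gave 832 higher and 243 lower. Changes are therefore relative to the other Daphnia probes of the same array, not amounts per animal.

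The surplus of higher calls lay among dim probes. Tested probes were ranked by mean level over the 20 juvenile arrays and split into 4 bins of 3220. In the dimmest bin 146 were called higher and 14 lower, and the median change of all probes there was 0.527. In the second bin 274 were higher and 59 lower, with a median of 0.381. In the third bin the counts were 205 and 168, with a median of -0.0175. The brightest bin had 51 higher and 103 lower calls and a median of -0.0835. The split turned from mostly higher to mostly lower as signal increased. Probes well above background on all 8 arrays showed no tilt, with 50% of 7672 changes above 0 and a median of 0.000142. Among the other 5208 tested probes, 74.1% of changes were above 0 and the median was 0.524. When only the 7672 well-measured probes were tested, 811 were called, of which 419 were higher.

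**Figure D2:**
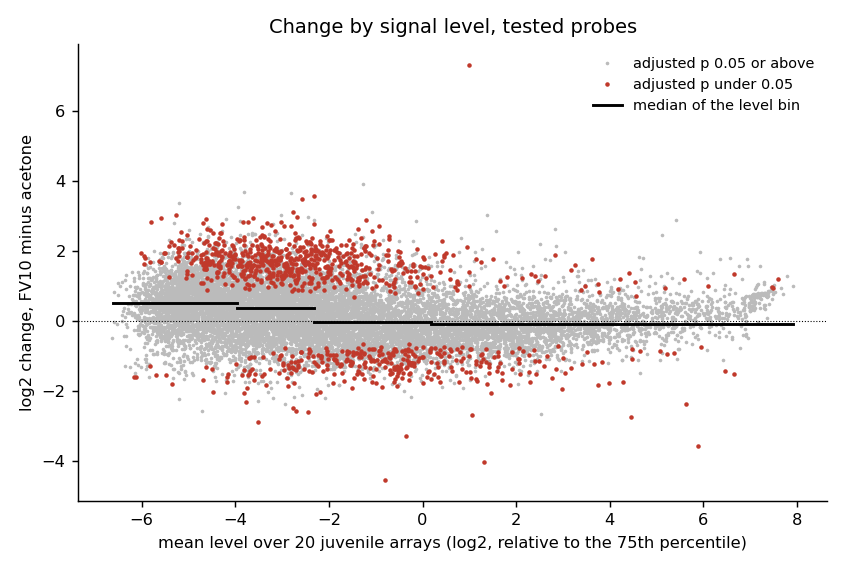
Change of each tested probe (FV10 minus acetone, log2) against its mean level over 20 juvenile arrays (log2, relative to the 75th percentile), with called probes in red and black bars at the median change of each of 4 level bins. The bars lie at 0.527 and 0.381 in the 2 dim bins and at -0.0175 and -0.0835 in the 2 bright ones.

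Probes whose 4 FV10 values all lay beyond the 4 acetone values were found in both directions. Of 12743 tested probes with all 8 values, 810 lay entirely above acetone (6.36%) and 692 entirely below (5.43%). Of the called probes, 419 of 676 higher and 295 of 344 lower ones had such separate groups. The same 8 arrays called those probes, so these counts are largely fixed by that choice and are descriptions. The gap between the nearest arrays of both groups was at least 2-fold for 26 higher and 8 lower probes. Detection changed outright for few. Among all 14338 probes, 25 were well above background on 4 FV10 arrays and on 0 acetone arrays, and 14 of these were called higher. Only 2 probes were well above background on 4 acetone arrays and on 0 FV10 arrays, and 0 of these were called.

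The change was carried unequally by the 4 FV10 pools. Over the 676 higher probes, the median difference from the acetone mean was 2.38, 2.25, 0.73 and 1.27 on FV10 arrays A, B, C and D. Single acetone arrays, set against the mean of the other acetone arrays, had medians of -0.263, 0.521, -0.253 and 0.132 on A to D. FV10 C was above acetone B by little, and A and B were far above both. Over the 344 lower probes, the FV10 medians were -1.76, -1.41, -0.669 and -0.848 on arrays A to D, against -0.0693, -0.333, -0.0306 and 0.419 on acetone arrays A to D. Both directions had the same order, with A and B furthest from acetone and C nearest. Other exposed juveniles, set against the acetone mean, moved the same way over the higher probes. Medians were 1.09, 0.438, 0.79 and 0.338 on FX40 A to D, so FX40 A and C exceeded FV10 C. On NP20 and NP60 arrays they ran from 0.115 to 0.549. Over the lower probes they were -0.5, -0.152, -0.466 and -0.329 on FX40 A to D, all nearer to acetone than FV10 C. NP20 and NP60 arrays ran from -0.434 to 0.00497 there. The FV10 and acetone arrays chose the probes, so the sizes are descriptions. Of 1018 called probes with 4 FV10 values, 1006 had the called direction on all 4 FV10 arrays, and 835 had a larger change on both A and B than on C and D. A change of at least 2-fold on all 4 FV10 arrays was seen for 176 higher and 32 lower probes.

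**Figure D3:**
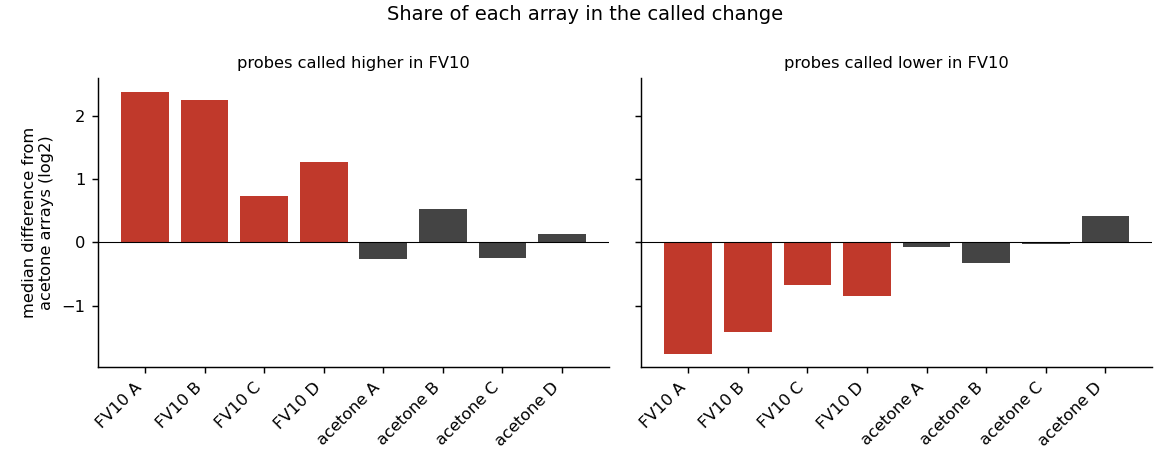
Median log2 difference from acetone on each FV10 and acetone array, over the 676 probes called higher (left) and the 344 called lower (right); an acetone array is set against the mean of the other acetone arrays. FV10 A and B reach 2.38 and 2.25 on the left, FV10 C 0.73.

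The number of calls rested on single arrays. Without FV10 A it was 3, without FV10 B 2 and without both 4, whereas without FV10 C it was 2488. It was 136 without acetone A, 156 without acetone C and 410 without acetone D. The sizes of the changes moved less than the counts in several of these fits. In the called direction, the median change was 1.51 over the 1020 probes as reported, and 1.27 without FV10 A and 1.36 without FV10 B over the 1017 still tested. The limma fit of only the 8 FV10 and acetone arrays called 8 probes, with a median change of 1.5 over the 979 of the 1020 it tested. A slide block left 1 call, with a median change of 1.43, whereas slide as a random block gave 1023 calls and a median change of 1.51. A brightness covariate left 4, with a median change of 1.01. Normexp background correction with the same scaling left 1 call and a median change of 0.567 (median SE 0.452). After that correction 913 of the 1020 probes had the called direction, which held for 569 of the 676 higher probes and for all 344 lower ones. Normexp with quantile normalization in place of that scaling called 1043 probes, of which 711 were among the 1020. The median change of the 1020 was then 0.706 (median SE 0.181), so the count after background correction depended on the scaling. With the spike-in difference (the 75th percentile minus the spike-in level) as a covariate, limma called 0 probes, and 1680 had an unadjusted p under 0.05. In that fit all 1020 probes kept their direction, with a median change of 0.917 (median SE 0.361), against 1.51 (median SE 0.381) without the covariate. Without FV10 A and B, 1014 of the 1020 were still tested, all in the called direction, with a median change of 0.906 (median SE 0.384). The FV10 and acetone arrays in these fits also chose the 1020 probes, so the kept directions are largely fixed by that choice. The sizes are descriptions and support nothing further. Both arrays with the low level relative to the spike-in probes are FV10, and its part in the calls was not tested beyond these fits.

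**Figure D4:**
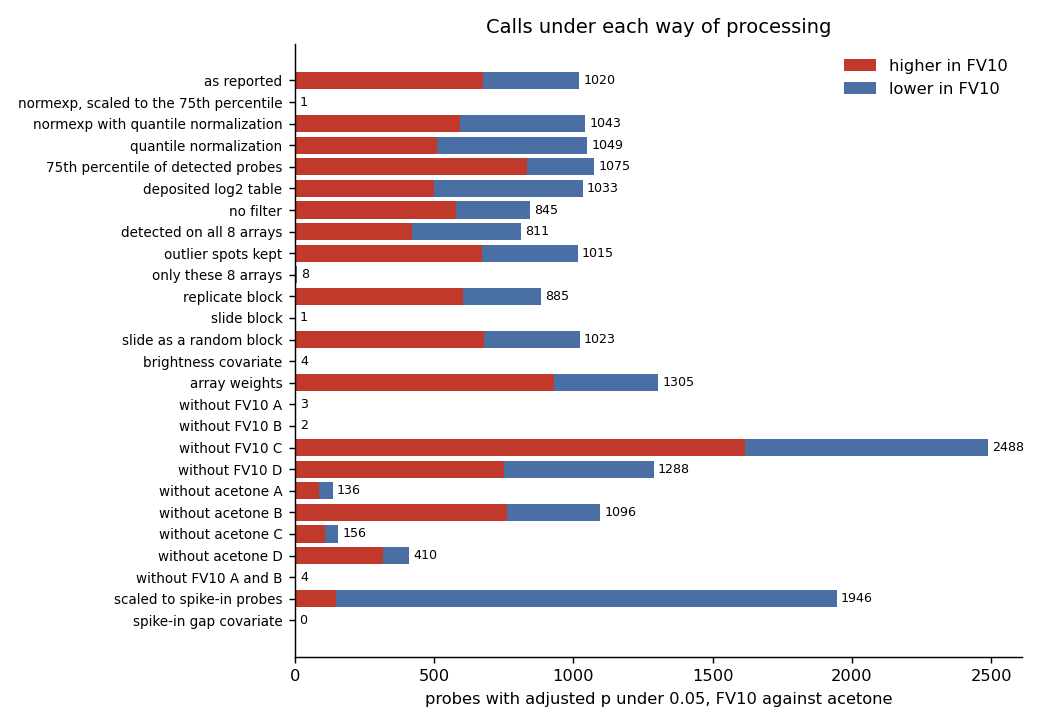
Number of probes with an adjusted p under 0.05 in FV10 against acetone, higher in red and lower in blue, for the analysis as reported and for each alternative. The bar is 1020 as reported, 3 without FV10 A, 2 without FV10 B and 2488 without FV10 C.

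FV10 and acetone shared slides 6 and 7, with a single array of each group on either. On slide 7, FV10 B minus acetone A had a median of 2.42 over the 676 higher probes and -1.38 over the 344 lower ones, against 0.351 over all tested probes. On slide 6, FV10 C minus acetone D had medians of 0.637 and -0.951, against -0.105 over all tested probes, and 91.1% of called probes had the called direction. These 4 arrays were among the 8 that chose the probes, so the agreement in direction is largely fixed by that choice and supports nothing further.

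By rule, the probes named are the 2 largest rises and the 2 largest falls among the 440 called probes that were well above background, unsaturated and without overlap between groups on all 8 arrays. Their values in every array follow.

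DM09934P1 had the largest change of all tested probes. Its level was 8.28, 7.94, 4.34 and 5.34 on FV10 arrays A, B, C and D, against -2.08, -0.04, -0.58 and -0.67 on acetone arrays A to D. The groups lay far apart, and A and B were higher than C and D. In intensity units the signal was 63900, 50300, 8100 and 12500 on FV10 arrays A to D, against 182, 443, 259 and 225 on acetone arrays A to D, so the rise was present before scaling. It rose by 7.32 (SE 0.82, 95% interval 5.6 to 9.04, adjusted p = 0.000636), about 160-fold. That SE rests on a spread estimated over the 5 juvenile groups, and the probe varied more in FV10 (SD 1.94) than in acetone (SD 0.87). In the limma fit of only the 8 arrays the SE was 0.88 and the adjusted p 0.0264. With C and D as the only FV10 arrays the rise was 5.68 (adjusted p = 0.0309), and it was 6.51 with spike-in scaling (adjusted p = 0.000703). With the spike-in difference as a covariate the rise was 6.35 and the adjusted p 0.054, the only alternative in which this probe missed the threshold. Within slides, the difference was 10.02 on slide 7 and 5.01 on slide 6.

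DM07083P1 was the other rise named. Its level was 1.47, 1.3, -0.37 and -0.03 on FV10 arrays A to D, against -3.35, -0.59, -1.98 and -3.22 on acetone arrays A to D. The groups did not overlap, but FV10 C and acetone B were close, and in intensity units they were nearly equal, at 309 and 302. It rose by 2.88 (SE 0.71, adjusted p = 0.0273). The adjusted p was 0.109 without FV10 A, 0.0987 without FV10 B, and 0.0821, 0.0612 and 0.0673 without acetone A, C and D. With spike-in scaling the rise was 2.06 (adjusted p = 0.0537), and with brightness as a covariate 1.41 (adjusted p = 0.455). With slide as a block it was 3.08 (adjusted p = 0.0965).

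DM14198P1 had the larger fall of the pair named. Its level was -1.74, -2.5, -1.79 and -0.3 on FV10 arrays A to D, against 2.96, 2.84, 3.32 and 0.67 on acetone arrays A to D. FV10 A, B and C were alike, and FV10 D and acetone D were the nearest values of the 2 groups. It fell by 4.03 (SE 0.95, adjusted p = 0.0237). The adjusted p was 0.0886 without FV10 A, 0.0891 without FV10 B, 0.0695 without acetone A and 0.0688 without acetone C. With C and D as the only FV10 arrays the change was -3.49 (adjusted p = 0.377), and with slide as a block it was -3.41 (adjusted p = 0.0838).

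DM11236P2 differed from the others in that C and D moved furthest. Its level was -1.48, -2.33, -4.03 and -3.63 on FV10 arrays A to D, against -0.54, 0.86, 0.43 and 0.91 on acetone arrays A to D. All FV10 values were below acetone, and the dim arrays A and B lay nearer to acetone than C and D. It fell by 3.28 (SE 0.72, adjusted p = 0.0197). Without FV10 A and B the change was -4.25 (adjusted p = 0.164), and with brightness as a covariate it was -4.35 (adjusted p = 0.0934). The adjusted p was 0.061 without FV10 A, 0.0633 without FV10 B and 0.0531 without acetone C. With slide as a block the change was -3.41 (adjusted p = 0.107). Within slides the difference was -1.8 on slide 7 and -4.94 on slide 6.

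**Figure D5:**
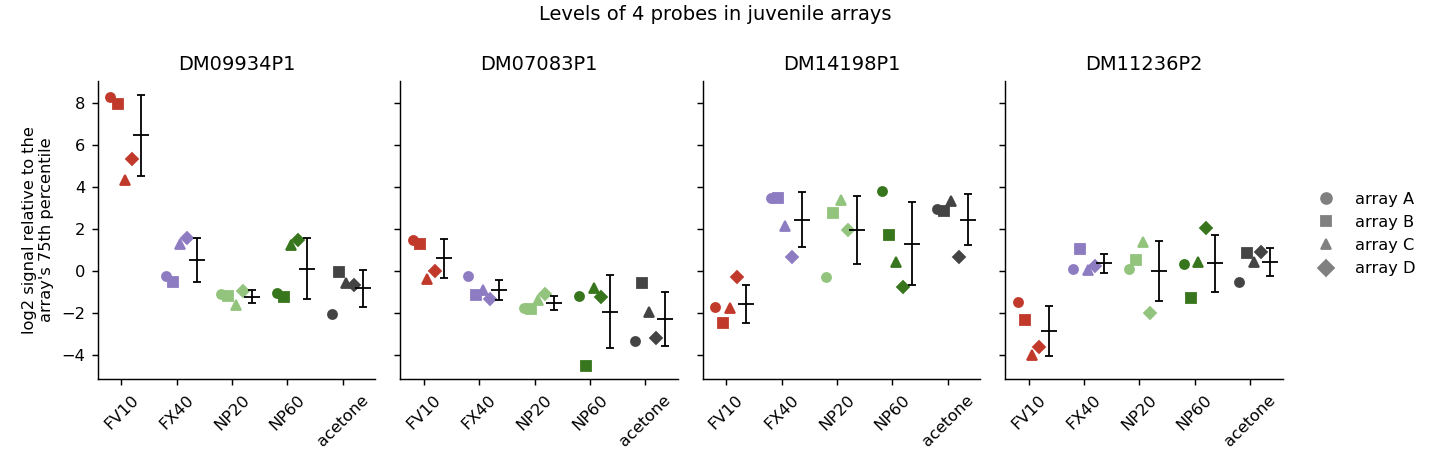
Level of 4 probes (log2 signal relative to the array's 75th percentile) on each juvenile array by group, with replicate letters as symbols and the mean ± SD (n = 4) beside each group. FV10 lies between 4.34 and 8.28 for DM09934P1, above all other juvenile arrays, and between -4.03 and -1.48 for DM11236P2.

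To see where fluvoxamine differed from the rest of the juvenile series, FV10 was also set against the mean of FX40, NP20 and NP60. Acetone means do not enter this difference, but the acetone arrays stayed in the fit of 20 arrays, in its spread and filter. In limma 1355 of 12880 probes were called (percent called 10.5), 810 higher in FV10 (6.29%) and 545 lower (4.23%), with a median of 0.13 over all tested probes. This count also rested on FV10 A and B. It was 3 without FV10 A, 10 without FV10 B, 2876 without FV10 C and 871 without FX40 D. With the spike-in difference as a covariate it was 0 in limma, with 1199 probes at an unadjusted p under 0.05. With spike-in scaling it was 4604, of which 130 were higher and 4474 lower. With only the FV10 and exposed arrays in the fit it was 1045 of 12775 tested, 662 higher and 383 lower. FV10 arrays are shared by both comparisons.

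All 4 named probes also passed this second test. They were chosen as extremes with the same FV10 arrays, so passing it is largely set by that choice and supports nothing further. DM09934P1 was higher in FV10 than in the exposed juveniles by 6.68 (SE 0.67, adjusted p = 0.000117). Its mean was 6.48 ± 1.94 in FV10, 0.52 ± 1.05 in FX40, -1.23 ± 0.3 in NP20, 0.09 ± 1.46 in NP60 and -0.84 ± 0.87 in acetone (SD, n = 4 each). The lowest FV10 value, 4.34, was above the highest value of the other 16 juvenile arrays, 1.56 in FX40. Such complete separation from the 16 arrays was found for 72 of 12431 probes with all values in the higher direction (0.579%) and for 101 in the lower (0.812%). Among probes called against acetone these were 48 of 676 and 79 of 344. The same FV10 arrays called those probes, so these counts are descriptions.

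The other named probes overlapped with some exposed juveniles. DM07083P1 was higher in FV10 than in the exposed mean by 2.05 (SE 0.58, adjusted p = 0.0348), with means of 0.59 ± 0.93 in FV10, -0.9 ± 0.47 in FX40, -1.53 ± 0.34 in NP20 and -1.95 ± 1.73 in NP60 (SD, n = 4 each). DM14198P1 was lower by a log2 difference of -3.47 (SE 0.78, adjusted p = 0.0173), at -1.58 ± 0.92 in FV10, 2.45 ± 1.33 in FX40, 1.95 ± 1.61 in NP20 and 1.29 ± 1.98 in NP60 (SD, n = 4 each). DM11236P2 was lower by a log2 difference of -3.11 (SE 0.59, adjusted p = 0.0131), at -2.87 ± 1.18 in FV10, 0.36 ± 0.47 in FX40, 0 ± 1.44 in NP20 and 0.37 ± 1.35 in NP60 (SD, n = 4 each). FX40 did not overlap with FV10 for DM14198P1 and DM11236P2. For DM14198P1, NP60 D lay within the FV10 range, at -0.79, and NP20 A at its upper end, at -0.3. For DM11236P2 the only overlap was with NP20 D, at -1.99. For DM07083P1 the overlap was with FX40 A, at -0.24, and the lowest FV10 value was -0.37.

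Adults exposed to fluvoxamine at the same labelled dose, from an age of 8 to 9 days and over 10 to 14 days, did not share the separation of DM09934P1. Its level was 6.68, 0.55, 0.54 and 0.21 on adult FV10 arrays A, B, E and H, against 5.07, 5.68, -3.18 and 0.42 on adult acetone arrays B, E, F and G. The adult groups overlapped, with 3 of 4 FV10 values inside the acetone range, and the difference between stages was not tested. Single adult arrays of other exposures were also high, at 6.35 on FX40 B and 5.73 on NP20 C, while adult NP60 reached 2.14 at most.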

How the data were processed

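Whole-animal RNA, 0.4 µg per sample and labelled with Cy3 per the labels' protocols, was read on one-colour arrays with 15744 spots, of which 15208 were not controls and held 14338 probes. Per the file headers, the authors' scanner files were made with Agilent Feature Extraction 10.7.3.1 and hold intensity values, of which the processed signal is already background-subtracted and detrended. A series-wide table, also deposited, holds log2 values. These followed quantile-normalized, probe-centred log2 signals of the same arrays (r per array 0.999 to 1), with column medians from -0.0548 to 0.0931 over the 8 arrays. Its exact steps are not stated, and it served as an alternative.

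Each processed signal was divided by the 75th percentile of its array and put on the log2 scale. Control and outlier spots were dropped, saturated ones retained, and duplicate spots averaged per probe. Probes well above background on at least 4 of the 20 juvenile arrays were tested, 12880 in all. limma 3.58.1 in R 4.3.3 was fitted over the 5 juvenile groups, with Benjamini-Hochberg adjustment and a threshold of 0.05. Of the tested probes, 137 lacked a value on at least 1 of the 8 arrays and were fitted on the rest. Measures per array were compared by two-sided exact permutation tests, whose smallest p for 4 against 4 is 0.0286. The limma code was tested on simulated arrays. The number of arrays limits precision. The highest correlation of 2 juvenile arrays was 0.9806, so none was a duplicate.

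Probes named were the 2 largest rises and 2 largest falls among called probes that were well above background, unsaturated and without overlap on all 8 arrays. Members, lists and rules were chosen with earlier results of these data known. Both spike-in alternatives were chosen after seeing the data. Alternatives covered background correction, scaling, filters, blocks, covariates, array weights and arrays left out. Replicate letters A to D were not treated as pairs, and the arrays showed no sign of pairing, though these values cannot exclude a shared set-up. The correlation of FV10 and acetone deviations with the same letter was -0.213, 0.00989, 0.013 and 0.196 for A to D.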

Additional observations from a re-analysis of the deposited data

Results flagged for a closer look

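Among 53 groups of 4 values examined, 5 had a single array far from the other 3, where chance gives about 1 in 20. The share of probes well above background was 57.9% on juvenile acetone C, below the other acetone arrays, and 74.7% on juvenile NP20 B, below the other NP20 arrays. For DM09934P1, adult FV10 A had a level of 6.68, above the other adult FV10 arrays. For DM07083P1, juvenile NP60 B had a level of -4.53, below the other NP60 arrays. For DM11236P2, juvenile FX40 B had a level of 1.05, above the other FX40 arrays. FV10 A and B were not among these, since a pair of arrays that lie together leaves no single one apart.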

How the results depend on the processing

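In FV10 against acetone, 1020 probes were called. The count was 1 after normexp with 75th-percentile scaling, 8 with only the arrays compared, 1 with a slide block, 4 with a brightness covariate, 4 when FV10 A and B were both dropped, 1946 with spike-in scaling and 0 with the spike-in difference as a covariate (1680 at an unadjusted p under 0.05 in limma). Leaving out single arrays gave 2 to 2488. Against the exposed juveniles the count was 1355. Under the same settings it was 1 (normexp), 1045 (only the arrays compared), 14 (slide block), 12 (brightness) and 7 (without A and B). It was 4604 with spike-in scaling and 0 with the spike-in covariate (1199 at an unadjusted p under 0.05 in limma). It was 2298 after normexp with quantile normalization and 3 to 2876 with single arrays left out. With replicate letter as a block the counts were 885 and 1232, and this block changed no call of a named probe. With slide as a random block they were 1023 and 1373, and all 4 named probes stayed called. They were 1049 and 1544 after quantile normalization, 1305 and 913 with array weights, and 845 and 1249 without a filter. Against acetone the count was 1043 after normexp with quantile normalization. As a fixed block, slide ended the calls of DM07083P1, DM14198P1 and DM11236P2 (adjusted p 0.0965, 0.0838 and 0.107). The median change of 0.195 was -0.174 after normexp, -0.00433 after normexp with quantile normalization, -0.0128 after quantile normalization, -0.0184 in the deposited table, 0.000142 for probes well above background on all 8 arrays, -0.618 with spike-in scaling and 0.125 to 0.273 with single arrays left out. The brightness difference was -1 to -0.569 and the detection difference -1.1 to 6.11 with single arrays left out. The causes were not tested. Of 25 alternatives, DM09934P1 passed the threshold in 24, DM07083P1 in 13, DM14198P1 in 15 and DM11236P2 in 16, and none reversed a direction. The fits with only 8 arrays or a slide block also have fewer residual degrees of freedom. Over the called probes their median SE was 0.434 and 0.425, against 0.381 as reported. What lowered the counts was not tested.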

Other observations

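Probes spotted in duplicate gave the repeatability within an array. The median absolute log2 difference between both spots, where well above background, was 0.283, 0.27, 0.25 and 0.246 on FV10 arrays A to D, against 0.222, 0.188, 0.243 and 0.471 on acetone arrays A to D. FV10 A and B were close to C and D in this measure, and acetone D had the widest differences.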
